A study of Mus musculus with 4 samples.

Results

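*Dppa2* and *Dppa4* (developmental pluripotency associated 2 and 4) are 2 neighbouring mouse genes, out of 24411 listed in every library, and were compared with each other library by library. The pair was chosen from earlier results on these same libraries, by its lower level in embryos treated with a MYC inhibitor, so its difference between the groups is given as a description, with no test. RNA-seq libraries had been made from late two-cell stage ICR mouse embryos, produced by in vitro fertilization and grown in KSOM medium with serum albumin until 36 hours post-insemination (hpi). The treated group, 2 libraries, received 6 µM 10074-G5, a small molecule that binds MYC and blocks its pairing with MAX. The control group, also 2 libraries, received DMSO, the solvent of the inhibitor. Both groups were of the same strain with no genetic change, and each library pooled 10 whole embryos, so no value belongs to a single embryo. The sample labels place the start of the culture with either agent at 3 hpi, and the series text places it at 6 hpi. The study's methods call the libraries of a group biological replicates, and do not say whether they came from separate fertilizations.

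Both proteins carry a SAP domain, which binds DNA, and a C-terminal domain that binds histones, and they act as a heterodimer on chromatin. In mouse embryonic stem cells the pair binds the promoter of *Dux*, the transcription factor gene that switches on the two-cell genes, and is needed for cells to enter a two-cell-like state. It also keeps promoters with both activating and repressive histone marks free of DNA methylation, by recruiting the COMPASS and polycomb complexes. In embryos the oocyte supplies transcripts of both genes, and the zygote makes more from about the two-cell stage.

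In the RefSeq annotation of GRCm38.p6 both genes are on the plus strand of chromosome 16, with *Dppa4* at chr16:48283735-48294292 and *Dppa2* at chr16:48310274-48319513. They are 15981 bases apart, and 0 other GENCODE genes overlap either of them. Of the GENCODE transcripts paired with a RefSeq entry, *Dppa2* has 1, of 1948 bases and 7 coding exons. *Dppa4* has a long transcript of 1479 bases with 7 coding exons and a short one of 1271 bases with 6. Coding exon 6, near the C-terminal end of both reading frames, is 196 bases long in both genes, and it is shown because it lets the kinship of the pair be read base by base. The capitals mark the longest run of identical bases when the exons are set side by side, 11 bases from position 51 to position 61. The first sequence is at chr16:48317288-48317483 and the second at chr16:48292911-48293106, both read from the plus strand of GRCm38 through GENCODE transcripts, 5′ to 3′.
Dppa2 coding exon 6: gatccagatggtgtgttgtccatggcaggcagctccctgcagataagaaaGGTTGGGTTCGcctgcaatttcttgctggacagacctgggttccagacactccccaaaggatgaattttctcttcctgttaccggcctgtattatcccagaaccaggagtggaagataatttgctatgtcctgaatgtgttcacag
Dppa4 coding exon 6: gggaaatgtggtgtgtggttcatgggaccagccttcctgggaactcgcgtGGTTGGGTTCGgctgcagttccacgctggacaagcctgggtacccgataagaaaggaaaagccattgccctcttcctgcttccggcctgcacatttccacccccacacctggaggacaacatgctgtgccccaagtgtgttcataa

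The exons were identical at 121 of 196 positions (61.7%). Over these whole transcripts of *Dppa2* and the long *Dppa4* the longest shared run was 12 bases, and 0 stretches of 31 bases were common to the RefSeq-paired transcripts of both genes, so no read stretch of that length was common to the pair. The long form of *Dppa4* holds 156 coding bases that the short form lacks, and they are shown because the deposited transcript length bears on which form was counted. They are the end of coding exon 3, at chr16:48289101-48289205, and coding exon 4, at chr16:48289328-48289378.
Dppa4 long-form end of coding exon 3: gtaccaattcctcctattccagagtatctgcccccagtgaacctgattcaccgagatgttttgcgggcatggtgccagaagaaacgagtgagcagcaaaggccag
Dppa4 long-form coding exon 4: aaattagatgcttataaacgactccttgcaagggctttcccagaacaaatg

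The depth was alike in the 4 libraries, with summed expected counts (the estimated number of fragments per gene) between 18206584 and 20718690. Control replicate 1 stood apart from the rest. Its CPM (counts scaled to the library total with TMM factors) differed over 2-fold from that of control replicate 2 for 43.4% of the 13549 tested genes, against 21.9% between the treated replicates. Control replicate 2 differed over 2-fold from the treated replicates for 29.2% and 24.2% of genes. The label was checked with markers of the stage. The 11 two-cell markers, with *Zscan4c*, *Tcstv1* and *Gm8300* among them, were listed above 0, and their summed FPKM (fragments per kilobase of transcript, scaled to the size of the library) was 2046 and 5185 in the controls and 5889 and 6772 in the treated libraries. The 14 markers of cumulus cells, which surround the egg, summed to FPKM values between 6.65 and 22.3, with control replicate 1 the highest. That rank rests on 1 gene, as *Amhr2* alone gave 21.5 of the 22.3 in control replicate 1. *Tnfaip6* went the other way, at 0 in control replicate 1, 3.95 in control replicate 2 and 3.38 and 1.45 in the treated libraries. *Ptx3*, *Foxl2*, *Amh* and *Inhba* were listed at 0 in every library. The 12 sperm and spermatid markers summed to between 55.6 and 95.2 FPKM, with control replicate 1 the lowest. That rank rests mainly on *Odf2*, at 12.4 and 38.5 in the controls and 59.8 and 42.8 in the treated libraries. *Ldhc* went the other way, with control replicate 1 the highest, at 40.5 and 29.4 against 19.3 and 31.2. *Prm1*, *Tnp2*, *Acr*, *Gapdhs*, *Smcp* and *Spata18* were listed at 0 in every library. The part of these markers in the results on the pair was not tested.

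*Dppa2* had an FPKM of 942 in control replicate 1 and 224 in control replicate 2, and of 106 and 114 in treated replicates 1 and 2. These values rest on 29966, 6784, 3644 and 3739 fragments in the same order. Control replicate 1 was far above the rest, control replicate 2 was the next, and the treated replicates were close together below both controls, so the groups did not overlap. *Dppa2* ranked 161 of the 24411 genes by FPKM in control replicate 1, 629 in control replicate 2, and 1138 and 1116 in the treated replicates.

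*Dppa4* had an FPKM of 1289.6 in control replicate 1, 648 in control replicate 2, 252 in treated replicate 1 and 383 in treated replicate 2. These rest on 27265, 13001, 5807 and 8381 fragments. The order of the groups was the same as for *Dppa2*, again without overlap, but the treated replicates were farther apart. *Dppa4* ranked 110 and 197 by FPKM in the controls and 493 and 337 in the treated libraries. Both genes were thus lower in the 2 treated libraries than in either control, a pattern held by 28.3% of all tested genes. The order of control replicate 1, then control replicate 2, then both treated libraries was held by 24.0% of all tested genes.

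**Figure D1:**
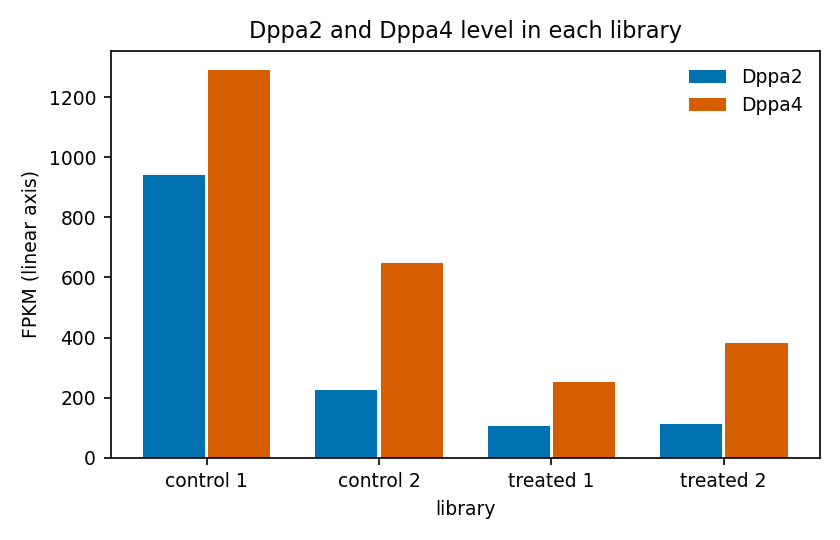
Bars give the FPKM of Dppa2 (blue) and Dppa4 (orange) in each of the 4 libraries, on a linear axis from 0, 1 bar per library and gene, with no error bar because each bar is a single library. Dppa4 is the higher bar in 4 of 4 libraries, and both genes are highest in control replicate 1, at 942 and 1289.6.

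For *Dppa2* the FPKM averaged 583 ± 507 (SD, n = 2) over the control libraries, and 110 ± 5.72 (SD, n = 2) over those of 10074-G5-treated embryos. The averages of *Dppa4* were 969 ± 454 and 318 ± 92.4 (SD, n = 2 each). The SD of *Dppa2* in the controls was thus nearly as large as its mean. In CPM the control mean was 6.2 times the treated mean for *Dppa2* and 3.47 times for *Dppa4*. Their log2 fold changes (log2FC, treated over control) in the edgeR fit were -2.63 and -1.79, given as a description. A lower log2FC was found for 243 tested genes (1.79%) in the case of *Dppa2* and for 680 (5.02%) in the case of *Dppa4*. With 2 libraries a group, an exact two-sided permutation test cannot give a p below 0.333 for any gene.

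Much of the difference between the 2 genes came with 1 library. The CPM of *Dppa2* was 5.0 times as high in control replicate 1 as in control replicate 2, and that of *Dppa4* 2.37 times. Of the tested genes, 543 (4.01%) had a larger log2 ratio between the controls than *Dppa2*, and 1685 (12.4%) a larger one than *Dppa4*. Control replicate 2 alone was 2.07 times the treated mean for *Dppa2* and 2.06 times for *Dppa4*. Without control replicate 1 the log2FC was -1.03 for *Dppa2* and -1.02 for *Dppa4*, against -3.37 and -2.29 without control replicate 2. Both genes were therefore lower in treated embryos with either control, by nearly equal ratios when control replicate 2 was the only one used. Fewer transcripts per embryo cannot be told apart here from a shift in what else the library held, and in pooled embryos fewer cells of a kind cannot be told apart from less RNA per cell.

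Library by library, the share of *Dppa2* in the fragments of the pair removes depth and scaling, since the same library gives both counts. *Dppa2* held 52.4% of them in control replicate 1 (exact binomial 95% interval 51.9 to 52.8) and 34.3% in control replicate 2 (33.6 to 35.0). It held 38.6% (37.6 to 39.5) in treated replicate 1 and 30.8% (30.0 to 31.7) in treated replicate 2. Control replicate 1 was the only library with more fragments of *Dppa2* than of *Dppa4*, and control replicate 2 lay between the treated replicates, so the groups overlapped. The intervals cover counting error only, and not the spread between libraries. PCR duplicates cannot be told from separate molecules, so the intervals may be too narrow even for counting error. No interval overlapped another, although the libraries include replicates.

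**Figure D2:**
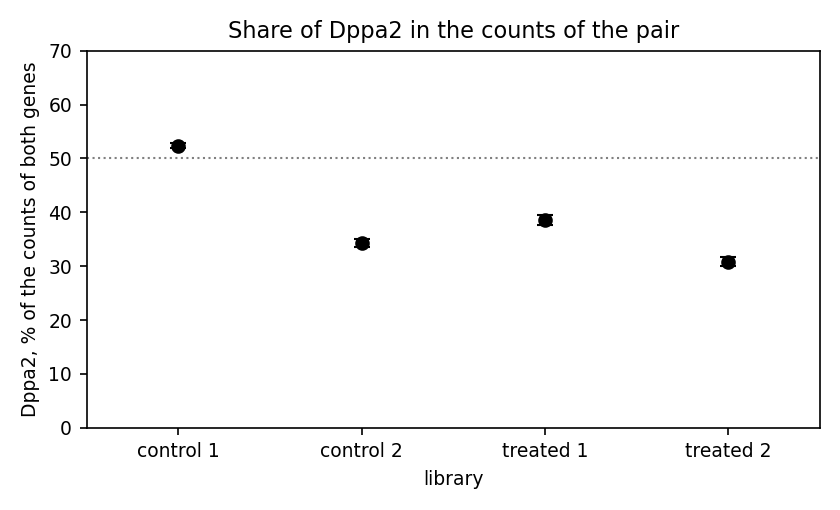
Points give the percentage of Dppa2 among the fragments of both genes in each library, and bars give the exact binomial 95% interval, which covers counting error only. The dotted line marks equal counts, and only control replicate 1 (52.4%) lies above it, with the other libraries between 30.8% and 38.6%.

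The share averaged 43.3% ± 12.8 over the controls and 34.7% ± 5.45 over the treated libraries (SD, n = 2 each). The difference of -8.62 percentage points was smaller than the spread between the controls, and without control replicate 1 it was 0.415 points, with the sign turned. Per length, *Dppa4* was the higher gene in 4 of 4 libraries, with an FPKM of 1.37, 2.89, 2.39 and 3.37 times that of *Dppa2* in the order of control and treated replicates. The summed FPKM of the pair was 2232 and 872 in the controls and 358 and 497 in the treated libraries.

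The deposited transcript length of a gene is a mean over its transcripts, weighted by their estimated abundance. For *Dppa4* it lay between 1382.6 and 1384.1 bases in the 4 libraries, a range of 1.46 bases, or 0.702% of the 208 bases by which its transcripts differ in GENCODE. The deposited length of *Dppa2* was 1941 bases in every library, against 1948 in GENCODE. The deposited lengths may therefore rest on another annotation, and the percentage holds for the GENCODE lengths only. The balance of the forms of *Dppa4*, as the deposited lengths record it, was therefore nearly the same in all libraries, while its level differed by over 5-fold.

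The genes whose pattern over the 4 libraries was most like each member were taken from the 10542 tested genes whose FPKM averaged 1 or more. Likeness was the root mean square distance between log2 CPM values, after the mean of each gene over the libraries was subtracted. Those nearest to *Dppa2* were *Sat2* (a polyamine acetyltransferase family gene), *Tra2b* (a splicing regulator), *Map3k3* (a kinase of the MAPK cascade), *Bri3bp*, *Ndufaf6* (assembly of respiratory complex I) and *Fez1* (kinesin-based transport). Their distances lay between 0.0633 and 0.16. *Tra2b*, the most abundant of them, had an FPKM of 613 and 180 in the controls and 76.3 and 80.1 in the treated libraries, a gap of over 3-fold between the controls and almost none between the treated replicates, as for *Dppa2*.

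Those nearest to *Dppa4* were *Chic1*, *Rpl7* and *Rpl12* (proteins of the large ribosomal subunit), *Srsf5* (a splicing factor), *Ddx47* (a helicase of ribosomal RNA processing) and *Hipk3* (a kinase), at distances between 0.0327 and 0.046. *Srsf5* had an FPKM of 890.5 and 438 in the controls and 162 and 252 in the treated libraries, with the treated replicates apart as for *Dppa4*. The ribosomal protein genes have many near-identical processed copies, so their counts are uncertain. *Dppa4* was 253rd in the order of likeness to *Dppa2*, at a distance of 0.491 and a Pearson's r of 0.97 over the 4 libraries, and *Dppa2* was 1500th in the order of likeness to *Dppa4*. The members thus shared the order of the libraries, but many other genes were closer to each of them than they were to each other. With 4 points a likeness is a description of these libraries and carries no p.

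**Figure D3:**
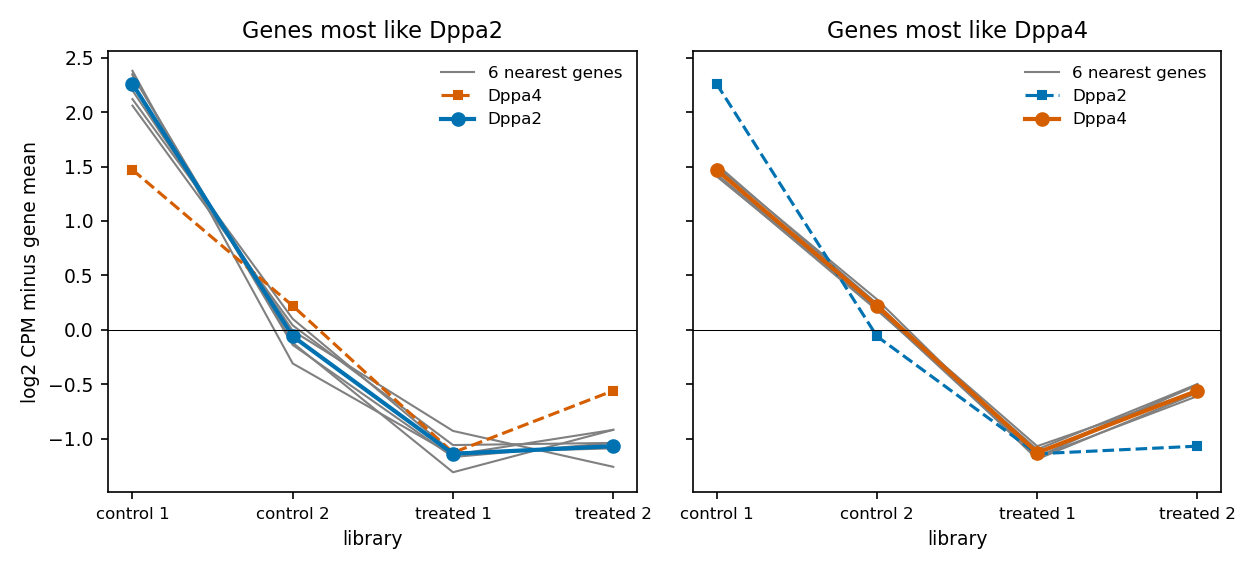
Lines join the log2 CPM minus the gene mean in the 4 libraries for Dppa2 and its 6 nearest genes (left) and for Dppa4 and its 6 nearest genes (right), the other member dashed, and the joining lines only lead the eye. Dppa2 goes from 2.26 in control replicate 1 to -0.06 in control replicate 2 and -1.14 and -1.07 in the treated replicates, and Dppa4 from 1.47 to 0.22, -1.13 and -0.56.

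The pair was chosen partly as neighbours of each other. The genes around it were examined because their position was not used in the choice. Of the annotated genes within 1 Mb, 9 were listed, each of them on the *Dppa2* side. *Trat1*, *Retnlb*, *Retnla* and *Retnlg* were at 0 counts in every library, and *Myh15* had 0, 7, 21 and 4 counts and was not tested. The nearest neighbour, the non-coding gene *Gm5485* at 79.9 kb from *Dppa2*, had 47 and 42 counts in the controls and 0 and 6 in the treated libraries. *Morc1* (germline silencing of transposons), at 111.7 kb, had an FPKM of 7.99 and 4.66 in the controls and 3.22 and 3.64 in the treated libraries.

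*C330027C09Rik* (*Cip2a*, an inhibitor of protein phosphatase 2A), at 674.6 kb, had an FPKM of 97.4 and 57.8 in the controls and 34.5 and 40.9 in the treated libraries. *Dzip3* (a ubiquitin ligase), at 604.7 kb, went the other way, with 4.46 and 18.0 in the controls and 19.6 and 19.5 in the treated libraries. Of the 4 neighbours tested, 3 were thus lower in both treated libraries and 1 was higher, where 28.3% and 28.9% of all tested genes were lower and higher without overlap. None of the 4 passed edgeR's quasi-likelihood test, with adjusted p between 0.333 and 0.531, and none was called by DESeq2, which left the adjusted p of *Gm5485* empty.

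Across all genes, the quasi-likelihood test of edgeR, adjusted by Benjamini-Hochberg, called 0 genes at |log2FC| > 1 and an adjusted p under 0.05. An unadjusted p under 0.05 was found for 1374 lower genes (10.1%) and 639 higher genes (4.72%). DESeq2 with transcript lengths called 429 lower genes (2.36%) and 83 higher genes (0.456%) of 18208. edgeR called 2065 genes lower and 2148 higher without control replicate 2, and 1 each way without control replicate 1. Each of these fits leaves 1 control library, which is assumed to vary like the treated pair, and the library left in the former is the one that stood apart. All tested genes together had a median log2FC of 0.04, which became 0.17 when libraries were scaled by their totals alone and 0.12 with limma on log2(FPKM + 1). By the sign of the log2FC, 51.5% of all tested genes were higher and 48.5% lower in treated embryos. The gene lists that follow are described by their counts against these shares, and "called" refers to DESeq2 with lengths. Counts of genes without overlap were made in CPM, which for a few genes differs from FPKM in the order of close libraries.

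The two-cell genes linked to the pair through *Dux*, a link known from mouse embryonic stem cells, mostly went in the opposite direction to the pair. Of 37 tested genes of the list, 31 were higher and 6 lower in treated embryos by the sign of the log2FC (51.5% and 48.5% of all genes). Of the list, 24 were higher without overlap (28.9% of all genes), and the median log2FC was 0.74. The median was 0.31 without control replicate 1 and 1.56 without control replicate 2. Of these genes 31 had their lowest level in control replicate 1, but the share of all tested genes lowest in that library was not counted. The summed FPKM of the list was 4469 and 11045 in the controls and 14207 and 14764 in the treated libraries. DESeq2 called 0 of them (0.456% of 18208 genes higher and 2.36% lower) and edgeR 0. An unadjusted edgeR p under 0.05 was found for 2 on the higher side (4.72% of all tested genes).

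*Dux* itself was near the limit of detection, with 37 and 68 counts in the controls and 49 and 20 in the treated libraries, which overlap. *Zscan4f*, of a family that marks the two-cell state, had an FPKM of 49.3 and 347 in the controls and 899.6 and 553 in the treated libraries. *Gm2022* had 213 and 593 in the controls and 1012 and 976 in the treated libraries. *Tdpoz2* was lower, at 18.5 and 27.3 in the controls and 9.2 and 16.5 in the treated libraries. edgeR's adjusted p was 0.334 for *Zscan4f*, 0.333 for *Gm2022* and 0.392 for *Tdpoz2*. Of the stage markers, *Tcstv1* had an FPKM of 186 and 812 in the controls and 1075 and 1241 in the treated libraries, and *Gm8300* 247 and 877 against 1235 and 1265. *Usp17lb* (307 and 456 against 324 and 469) and *Sp110* (565 and 513 against 448 and 530.3) overlapped between the groups. *Dux*, *Zscan4*, *Tdpoz*, *Tcstv* and *Usp17l* genes have near-identical copies, so their counts are uncertain and the members of the list are not independent of each other.

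**Figure D4:**
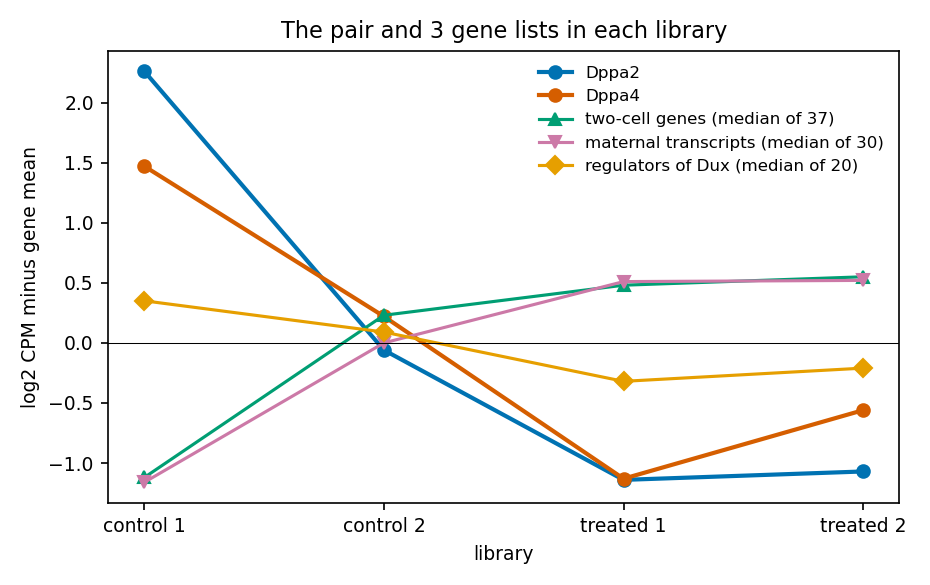
Lines join, over the 4 libraries, the log2 CPM minus the gene mean of Dppa2 and Dppa4 and the median of the same quantity over the 37 two-cell genes, 30 maternal transcripts and 20 regulators of Dux and the two-cell programme, with no error bar and the joining lines only to lead the eye. The two-cell list goes from -1.12 in control replicate 1 to 0.23, 0.48 and 0.55, and the maternal list from -1.16 to 0.0, 0.51 and 0.52, opposite to the pair.

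Maternal transcripts, which the oocyte stores and the embryo degrades, were on the same side as the two-cell genes. Of 30 genes, 27 were higher and 3 lower (51.5% and 48.5% of all genes), and 22 were higher without overlap (28.9% of all genes). Of the 30 genes, 27 were lowest in control replicate 1, again with no share of all genes counted. The median log2FC was 0.84, against 0.55 without control replicate 1 and 1.7 without control replicate 2. Their summed FPKM was 22890 and 42358 in the controls and 71756 and 64527 in the treated libraries. DESeq2 called 4 of them higher (0.456% of 18208 genes). These were *Nobox* (an oocyte transcription factor), at 6.38 and 14.5 FPKM in the controls and 40.7 and 39.3 in the treated libraries, *Oosp1* at 555 and 1572 against 3691 and 2917, *Oog1* at 282 and 542 against 1555 and 1163, and *Kpna7* (an importin) at 9.21 and 26.2 against 67.8 and 52.9. DESeq2's adjusted p was 0.0134, 0.0292, 0.0114 and 0.0263, and edgeR's was 0.333 for each. *Zp3*, a zona pellucida gene, was at 205 and 75.1 against 59.0 and 65.1, and *Khdc3* at 12.1 and 8.4 against 8.75 and 12.3, which overlap. The opposite courses of the pair and of these lists over the libraries were not tested against each other.

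The listed regulators of *Dux* and the two-cell programme were mostly lower. Of 20 genes, 4 were higher and 16 lower (51.5% and 48.5% of all genes). Of the 20, 13 were lower without overlap (28.3% of all genes), and the median log2FC was -0.47. DESeq2 called 1. This was *Sumo2*, whose product is attached to proteins and takes part in silencing *Dux*, with an FPKM of 4204 and 2018 in the controls and 803 and 1070.4 in the treated libraries (DESeq2 adjusted p = 0.00952, edgeR 0.333). Its log2FC of -1.92 was -1.1 without control replicate 1. Its order over the libraries was that of both *Dppa2* and *Dppa4*. Control replicate 1, then control replicate 2, then both treated libraries was the order of 24.0% of all tested genes.

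*Kdm1a* and *Trim28*, repressors of two-cell genes, had 24.8 and 14.5 FPKM against 9.1 and 8.68, and 55.8 and 26.7 against 21.0 and 20.4. edgeR's adjusted p was 0.333 for both. *Smchd1*, a silencer of *Dux*, had 25.3 and 18.2 against 17.4 and 16.9. *Dnmt1* had 3.59 and 4.07 against 4.1 and 6.84, apart by a small margin in FPKM but overlapping in CPM. *Lin28a* (4.7 and 2.87 against 4.17 and 4.17), *Nelfa* (15.0 and 28.0 against 22.0 and 35.0) and *Pias4* (2.29 and 5.07 against 2.53 and 3.93) overlapped between the groups. The product of *Pias4* is a SUMO ligase that acts against DPPA2.

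The subunits of the COMPASS and polycomb complexes that the pair recruits, listed together with the demethylase gene *Kdm5b*, were divided in direction. Of 22 tested genes, 10 were higher and 12 lower, 6 and 8 of them without overlap (28.9% and 28.3% of all genes). The median log2FC was -0.09, against 0.09 without control replicate 1 and -0.54 without control replicate 2. *Mtf2*, a polycomb accessory subunit, was the only one called, on the lower side (2.36% of 18208 genes). Its FPKM was 401 and 324 in the controls and 153 and 175 in the treated libraries (DESeq2 adjusted p = 0.0355, edgeR 0.333). *Kdm5b*, a demethylase that removes the COMPASS mark, had 90.5 and 46.0 against 29.9 and 37.4. The COMPASS methyltransferase genes *Kmt2b* (0.76 and 1.48 against 2.19 and 2.23) and *Kmt2d* (1.57 and 2.91 against 3.76 and 3.66) were on the higher side. edgeR's adjusted p for these 3 lay between 0.333 and 0.46.

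Of the 3 genes reported to lose expression in cells or mice without the pair, none was called (0.456% of 18208 genes higher and 2.36% lower). *Mael*, of the piRNA pathway, had an FPKM of 55.2 and 113 in the controls and 187 and 156 in the treated libraries. *Syce1*, of the synaptonemal complex, had 8.17 and 6.27 against 5.12 and 9.43, and *Nkx2-5*, a heart transcription factor, had 2 and 21 counts against 11 and 19. *Nkx2-5* and *Syce1* overlapped between the groups.

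The other genes that carry the name *Dppa*, which are no paralogs of the pair, did not move as one. *Dppa5a*, an RNA-binding protein gene, had an FPKM of 8884 and 3707 in the controls and 1063 and 1595 in the treated libraries, with a log2FC of -2.43 (DESeq2 adjusted p = 0.00109, edgeR 0.333). The log2FC was -1.47 without control replicate 1 and -3.0 without control replicate 2. Its order over the libraries was that of both *Dppa2* and *Dppa4*, but copies in the genome make its counts uncertain. *Dppa3* (*Stella*), which protects the maternal genome from demethylation, had 23548 and 15004 against 11263 and 12132, without overlap (edgeR adjusted p = 0.384). *Dppa1* was low, at 1.55 and 3.6 against 4.78 and 3.33.

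Among 15 tested genes of proteins with a SAP domain, 6 were higher and 9 lower, with a median log2FC of -0.29 that lay between -0.62 and 0.02 as single libraries were left out. *Sarnp*, an mRNA export factor, was the only one called, on the lower side (2.36% of 18208 genes). Its FPKM was 200.4 and 119 in the controls and 48.2 and 41.4 in the treated libraries (DESeq2 adjusted p = 0.00563, edgeR 0.333). *Sltm* had 51.4 and 44.4 against 27.9 and 36.4, *Pias2* had 11.9 and 27.1 against 37.9 and 30.9, and *Mkl2* had 0.7 and 6.53 against 8.4 and 5.16.

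Among 28 other proposed activators of the zygotic genome, 12 were higher and 16 lower, with a median log2FC of -0.11 that lay between -0.36 and 0.0 as single libraries were left out. DESeq2 called 1 of them higher and 1 lower (0.456% and 2.36% of 18208 genes). The higher one was *Obox5*, an oocyte homeobox gene of a family with close copies. It had 487 and 1895 FPKM in the controls and 5175 and 4318 in the treated libraries (DESeq2 adjusted p = 0.0131, edgeR 0.333). Its log2FC of 1.93 was 1.33 without control replicate 1 and 3.02 without control replicate 2. The lower one was *Tead4*, a factor of the later trophectoderm, at 7.98 and 4.81 against 1.82 and 1.01 (DESeq2 adjusted p = 0.02, edgeR 0.333). *Myc* was at 7.59 and 7.81 FPKM in the controls and 2.73 and 2.74 in the treated libraries. 10074-G5 acts on the MYC protein, so its mRNA is no direct check of the treatment. *Max* went the other way, at 16.2 and 34.9 against 68.8 and 46.4. edgeR's adjusted p was 0.333 for *Myc* and 0.334 for *Max*, and DESeq2's was 0.0673 and 0.132.

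Among 17 tested pluripotency factors of later cleavage stages, 8 were higher and 9 lower, with a median log2FC of -0.04 that lay between -0.22 and 0.19 as single libraries were left out. *Fgf4*, a growth factor gene, was the only one called, on the lower side (2.36% of 18208 genes). Its FPKM was 9.83 and 11.2 in the controls and 2.14 and 3.16 in the treated libraries (DESeq2 adjusted p = 0.00903, edgeR 0.333). *Tcl1* had 2034 and 5310 against 9606 and 9315, and *Gbx2* 2.21 and 7.32 against 10.2 and 8.69. Of the single genes that marked other cells, *Amhr2*, which made up most of the cumulus sum in every library, had 21.5 and 8.57 against 5.57 and 4.45. *Tnfaip6*, also of cumulus cells, had 0 and 95 counts against 93 and 38, with control replicate 1 the lowest. The sperm markers with the smallest p, *Prm2*, *Odf2* and *Ldhc*, had 1.56 and 4.44 against 15.8 and 5.88, 12.4 and 38.5 against 59.8 and 42.8, and 40.5 and 29.4 against 19.3 and 31.2.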

How the data were processed

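Poly(A) RNA of 2 DMSO control and 2 MYC-inhibited libraries was sequenced by the authors after SMART-Seq cDNA amplification. Per the submitters' processing notes, reads were aligned to mm10 with STAR 2.7.10 and quantified with RSEM 1.3.3. The deposited expected counts are RSEM's estimated counts, not normalized. The FPKM and TPM deposited by the authors are scaled for length and library. The deposited transcript lengths are abundance-weighted means, and TPM was used in 1 alternative only.

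Expected counts were rounded, filtered with filterByExpr (minimum count 10, minimum total count 15), which kept 13549 of 24411 genes, and tested with edgeR's quasi-likelihood test (edgeR 4.0.16, R 4.3.3) after TMM scaling, with factors of 0.873 and 1.04 for the controls and 1.04 and 1.06 for the treated libraries. The common biological coefficient of variation was 0.557. Benjamini-Hochberg adjustment ran over all tested genes, with thresholds of |log2FC| > 1 and adjusted p under 0.05. DESeq2 1.42.0 and limma 3.58.1 on log2(FPKM + 1) or log2(FPKM + 0.1) served as alternatives, beside other scalings and filters, a replicate block and leaving out each library. Group values are means ± SD over 2 libraries.

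The members, lists and tests were chosen with earlier results of these data known. The 12 lists were written from general knowledge. Named genes were the 6 nearest to each member, the neighbours within 1 Mb, the list genes with the smallest unadjusted p in each direction (up to 2, mean FPKM of at least 1), those DESeq2 called, all genes of lists of 3, and a few regulators fixed by name. *Trim28* and *Tcl1* fall under 2 lists. The values of 1 gene that the rule names are not reported here. Sequences and transcripts came from GENCODE M21, and gene positions and distances from RefSeq, both on GRCm38.p6.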

Additional observations from a re-analysis of the deposited data

How the results depend on the processing

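*Dppa2* and *Dppa4* were lower in treated embryos under all 13 alternatives, with a log2FC of *Dppa2* from -3.37 to -1.03 and of *Dppa4* from -2.29 to -1.02, and these limits are the values without control replicate 2 and control replicate 1. The share of *Dppa2* in the pair differed between the groups by -17.7 to 0.415 points when libraries were left out, with the sign turned without control replicate 1.

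DESeq2 called 95 genes higher and 471 lower on the same genes, and 83 and 429 with lengths. Without the low-count filter edgeR called 165 and 479. Leaving out single libraries gave 1 to 2148 higher and 1 to 2065 lower calls, the most without control replicate 2. In these fits 1 arm is a single library, assumed to vary like the libraries of the other group, so the counts carry no spread of that arm. The labels tie same-numbered libraries to each other by the number alone. The correlation over genes of their deviations was -0.0343, which cannot show whether they were paired. With the replicate number as a block edgeR called 12 genes higher and 32 lower, and the block gave a log2FC of -2.21 for *Dppa2* and -1.69 for *Dppa4*.

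The median log2FC of the regulators of *Dux* and the two-cell programme was -0.29 and -0.31 with limma on log2(FPKM + 1) and log2(FPKM + 0.1) and -0.31 with library totals. Left-out libraries moved the median of the two-cell list from 0.31 to 1.56, of the maternal list from 0.55 to 1.7, of the COMPASS and polycomb list from -0.54 to 0.09, of the 3 genes that need the pair from -0.27 to 1.37, of the SAP-domain list from -0.62 to 0.02, of the other activators from -0.36 to 0.0 and of the pluripotency list from -0.22 to 0.19. Medians near 0 turned sign with the scaling: with limma at both pseudocounts and library totals the other activators came to 0.03, 0.04 and 0.04 and the pluripotency factors to 0.11, 0.14 and 0.14.

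Of the 65 named genes, 9 turned sign under some alternative. With the same 3 settings *Khdc3* came to 0.03, 0.04 and 0.04, *Lin28a* to 0.14, 0.18 and 0.14 and *Usp17lb* to 0.06, 0.06 and 0.06, and *Syce1* came to 0.01 with library totals and *Lin28a* to 0.04 with the block. Leaving out libraries gave a log2FC from -0.02 to 0.74 for *Dnmt1*, -0.48 to 0.32 for *Khdc3*, -0.44 to 0.54 for *Lin28a*, -0.06 to 0.66 for *Nelfa*, -0.63 to 2.5 for *Nkx2-5*, -0.65 to 0.22 for *Pias4*, -0.64 to 0.25 for *Syce1*, -0.7 to 8.92 for *Tnfaip6* and -0.34 to 0.2 for *Usp17lb*. By Pearson correlation 0 of the 6 genes nearest to *Dppa2* and 1 of those nearest to *Dppa4* stayed among the nearest 6, and *Dppa4* was 1209th in likeness to *Dppa2*. The causes were not tested.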
